A study of Mus musculus with 12 samples.

Results

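The genes described here encode the machinery of mitosis, the spindle checkpoint and cytokinesis. They are 46 named genes, from the cyclins that start mitosis to the proteins that pinch the daughter cells apart, taken by symbol from a table of 23420 genes. Condensins, Top2a and kinesins other than Cenpe, which is counted with the kinetochore, were not in the list, and all 46 symbols were found. The libraries came from basal epithelial cells of the hard palate of 6 FVB mice, all of the genotype K5-tTA (+/-); tetO-H2B-GFP (+/-) and coded B1M, B3M, B4M, B5M, B7F and B7M. In these mice the keratin 5 promoter drives a transactivator that switches on a green histone, so only cells with an active keratin 5 promoter take up the label. Doxycycline stops the label, and division during the chase that follows dilutes the green histone. Every mouse had been chased for 14 days. Cells positive for CD49f (integrin α6, a basal surface protein) were sorted from each mouse into a GFP-HI fraction, which the submitters call infrequently dividing, and a GFP-LO fraction, which they call frequently dividing. Both fractions therefore share the genotype, the chase and the sort for CD49f, and no unchased library was analysed here. The mice were 49 days old, apart from B7F at 71 days, and each library was made from a pool of 200 to 1000 sorted cells.

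A cell enters mitosis when CDK1 joined to A- and B-type cyclins phosphorylates its targets. Kinetochores then catch spindle microtubules, the checkpoint holds the anaphase-promoting complex back until every chromosome is attached, and destruction of cyclin B and securin lets the chromatids part. Most of the genes are transcribed late in the cell cycle, when the B-MYB and FOXM1 factors act with the MuvB core at a short promoter element, the cell cycle genes homology region (CHR), next to CCAAT boxes bound by NF-Y. The proliferating cells of a stratified epithelium such as the palate lie mostly in and near its basal layer.

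Promoters are shown because these genes are known to share such elements. Of the 46 genes, 36 matched a RefSeq promoter (GRCm38.p6), and the 250 bases before the RefSeq gene start were searched. That start lay 247 bases from the start of the counted gene in Mad2l1 and 267 bases in Pttg1, whose windows held neither motif. In the other matched genes it lay at most 64 bases away. The unmatched genes were Tpx2, Incenp, Dlgap5, Spc24, Cdc25c, Pbk, Ccna2, Cdca2, Foxm1 and Aurkb. For the CHR, TTTGAA or TTCGAA was searched on both strands, and for the CCAAT box CCAAT on both strands. Matches may overlap, as a pair of CCAAT boxes does in Ube2c. Printed are the 3 genes with the smallest p between the fractions whose window holds a CHR, with both motifs in capitals, each 5′ to 3′ on the strand of its gene.
Mki67, chr7:135716380-135716629, minus strand: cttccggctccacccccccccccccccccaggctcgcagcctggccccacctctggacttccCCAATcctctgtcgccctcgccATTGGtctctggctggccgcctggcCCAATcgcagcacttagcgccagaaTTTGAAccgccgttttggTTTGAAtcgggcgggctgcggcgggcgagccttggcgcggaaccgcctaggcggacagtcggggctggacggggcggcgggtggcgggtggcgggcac
Prc1, chr7:80294226-80294475, plus strand: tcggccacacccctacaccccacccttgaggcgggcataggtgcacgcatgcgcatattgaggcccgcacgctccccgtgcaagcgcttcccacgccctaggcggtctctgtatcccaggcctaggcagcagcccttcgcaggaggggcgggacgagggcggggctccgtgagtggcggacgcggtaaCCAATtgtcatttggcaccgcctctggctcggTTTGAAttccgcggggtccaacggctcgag
Ube2c, chr2:164769679-164769928, plus strand: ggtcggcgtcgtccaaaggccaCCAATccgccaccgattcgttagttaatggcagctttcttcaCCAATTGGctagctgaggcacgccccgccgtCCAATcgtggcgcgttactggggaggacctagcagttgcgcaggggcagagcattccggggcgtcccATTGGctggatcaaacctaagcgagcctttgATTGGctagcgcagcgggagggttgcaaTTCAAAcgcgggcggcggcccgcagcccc

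A CCAAT box lay in the window of 26 of the 36 genes (72.2%), against 36.7% of the windows of the 8624 tested genes that matched. A CHR lay in 11 of 36 windows (30.6%), against 11.8% of those of tested genes. All 11 also held a CCAAT box, a combination found in 4.8% of the windows of tested genes. The median GC content of the windows was 59.0% for the 36 genes and 60.4% for tested genes. Where a CCAAT box was present, the copy nearest the gene start lay within 100 bases of it in 24 of 26 genes, and for the CHR this held in 7 of 11. The 11 genes with a CHR had a median log2 fold change of 0.34 and the 25 without one had 0.29, with 9 and 23 of them positive. These letters are a description of the windows and were not tested as binding sites.

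**Figure D1:**
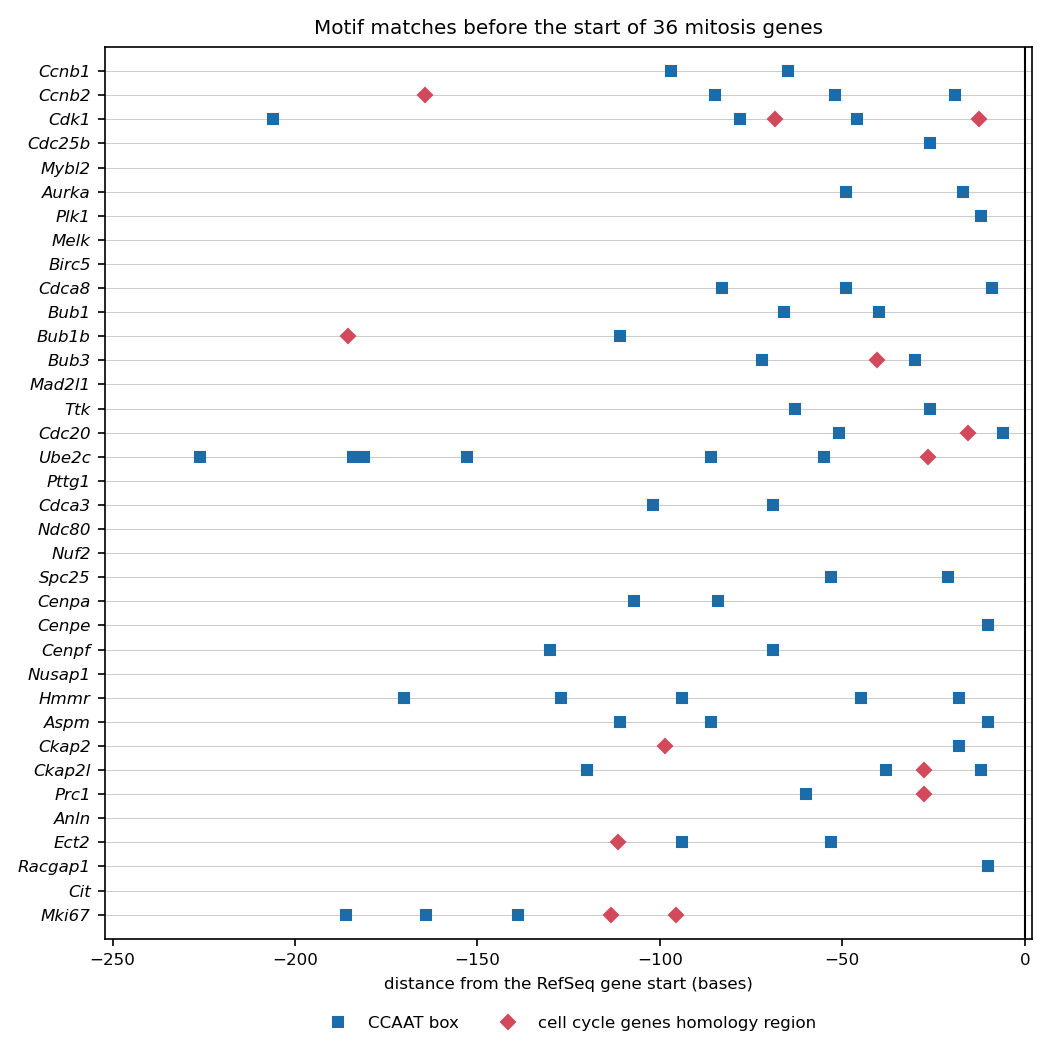
Matches to the CCAAT box (blue squares) and to the cell cycle genes homology region (red diamonds) in the 250 bases before the RefSeq start of 36 mitosis genes. The horizontal axis is the distance from the gene start in bases, and 26 genes hold a CCAAT box while 11 hold a homology region.

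Totals ranged from 6678444 to 10547665 counts per library, of which the ribosomal precursor Rn45s held 31.5% to 59.8%. Fewest genes had a count in the B1M and B3M libraries of GFP-HI, 12312 and 12810, against 13101 to 19023 elsewhere. The sorted cells carried basal keratinocyte markers. The 10 listed ones (such as Krt5, Krt14 and Trp63) summed to 15767 to 24562 CPM in GFP-HI against 18692 to 25521 CPM in GFP-LO. Of these 10, 2 had a positive log2 fold change (GFP-HI over GFP-LO), and the median was −0.07. Krt5 had −0.16 and Krt15 had 0.32 (edgeR adjusted p = 0.42 and 0.48). CPM are counts scaled to a common, TMM-adjusted library total. The 14 suprabasal markers found summed to 4783 to 9988 CPM in GFP-HI against 5163 to 7415 CPM in GFP-LO. Of the 12 tested suprabasal markers, 7 had a positive log2 fold change, and their median was 0.04. The 11 fibroblast markers summed to 369 to 638 CPM against 466 to 686 CPM, and most of that sum was Dcn, which was lower in GFP-HI by edgeR's paired test (log2 −0.49, adjusted p = 0.0031), as was the suprabasal gene Calml3 (log2 −0.47, adjusted p = 0.027). The other 5 tested fibroblast markers had positive values, and the median over the 6 was 0.87. Postn was higher (log2 0.67, adjusted p = 0.011), and Fn1, Col1a1, Col1a2 and Vim had 0.65, 1.55, 1.11 and 1.08 (adjusted p = 0.60, 0.69, 0.82 and 0.80). Col1a1, Col1a2 and Vim averaged at most 3.07 CPM in either fraction, and 5 of the 11 averaged under 1 CPM. The 10 leukocyte markers found stayed at or below 45.3 CPM in sum, the 6 endothelial ones at or below 5.41 CPM and the 6 melanocyte ones at or below 6.53 CPM; the endothelial gene Emcn had 0 counts in every library. Among the leukocyte markers 6 of 10 averaged under 1 CPM, and the 2 that were tested had opposite signs. The T cell gene Cd247 was at 14.8 ± 7.50 CPM against 7.81 ± 1.46 CPM (SD, n = 6). Its difference was positive in 6 of 6 mice (log2 0.81, adjusted p = 0.56). That of Cd74 was positive in 1 of 6 (log2 −0.60, adjusted p = 0.81). The 7 Merkel cell and taste markers summed to 19.8 to 35.7 CPM against 10.7 to 30.2 CPM, and all 3 tested ones had positive values (median 0.38), with Krt8 at 0.99 (adjusted p = 0.72). The part of these cell types in the values below was not tested.

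The mitosis genes were expressed in both fractions and none had 0 counts in any library. Their summed level was 3041, 3334 and 4728 CPM (lowest, median and highest of 6) in GFP-HI and 2269, 2746 and 3386 CPM in GFP-LO. These ranges overlapped. Within mice the GFP-HI library had the larger sum in 5 of 6 animals, with a mean log2 ratio of 0.32 ± 0.178 (SD, n = 6), or 1.25-fold. Leaving Mki67, the most abundant of them, out of the sums gave 0.31 ± 0.176. In bulk libraries, a larger share of cells that express these genes and more of these RNAs in each such cell cannot be told apart.

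No single mitosis gene passed the test between the fractions. In edgeR's quasi-likelihood test with mouse as a block, adjusted over all 11719 tested genes, 0 of the 46 genes were higher in GFP-HI, where 0.469% of all tested genes were, and 0 were lower, where 0.0597% were. At an unadjusted p under 0.05, 25 of the 46 were higher, against 4.3% of all tested genes, and 0 were lower, against 2.94%. The number higher fell to 16 without B7M and to 17 without the mouse block. A positive log2 fold change was found in 42 of 46 genes (91.3%), against 46.9% of all tested genes. The median was 0.31, against −0.02 over all tested genes. Values ran from −0.40 for Mybl2 to 0.60 for Pbk. The 46 genes were measured in the same pairs of libraries and are not independent observations. They were also chosen with earlier results of these data known, so their shares were not tested against those of all genes. DESeq2 with the same block called 9 of the genes higher (1.02% of all tested genes) and 0 lower (0.196%). It gave no adjusted p for 3408 genes, Mybl2 and Spc24 among them, which its filter on low counts left out. Those genes are counted in both shares, which would be larger without them. limma on log2 CPM called 0 of them higher (0.452%) and 0 lower (0.0597%), with 25 higher at an unadjusted p under 0.05. edgeR without a filter on low counts called 6 higher (0.582%) and 0 lower (0.206%). Those called by DESeq2 were Mki67, Tpx2, Nusap1, Incenp, Ube2c, Prc1, Pbk, Anln and Cdk1, with adjusted p from 0.0023 to 0.045.

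**Figure D2:**
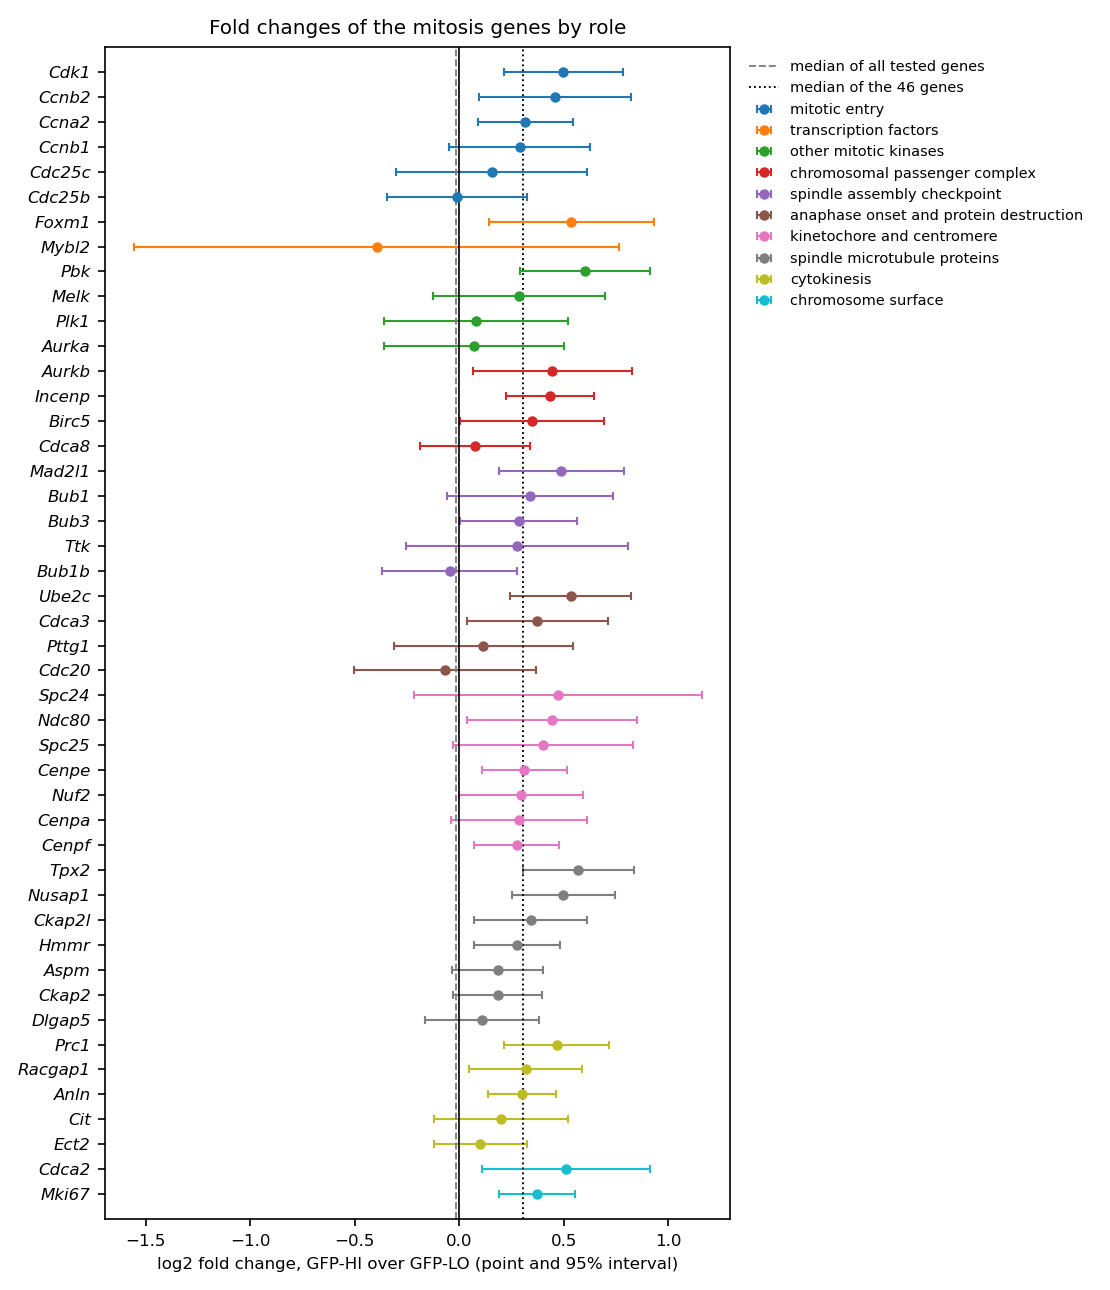
Log2 fold change of each of the 46 mitosis genes, GFP-HI over GFP-LO, with a 95% interval derived from edgeR's paired test, coloured by role. Most points lie right of 0, near the dotted median of 0.31, while the dashed median of all tested genes is −0.02, and Mybl2 has the widest interval.

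The 6 genes of mitotic entry had a median log2 fold change of 0.30, and 5 were positive. Cdk1, the kinase that drives entry into mitosis, stood at 42.1, 54.1 and 60.2 CPM (lowest, median, highest) in GFP-HI against 31.2, 36.5 and 44.5 CPM in GFP-LO. The groups overlapped only through the lowest GFP-HI library, that of B1M, and the difference was positive in 6 of 6 mice. Its log2 fold change was 0.50 ± 0.13 (SE; 1.41-fold, edgeR adjusted p = 0.20). Ccna2, the A-type cyclin of S phase and early mitosis, ran over 92.8, 110 and 146 CPM in GFP-HI against 78.2, 93.7 and 108 CPM in GFP-LO. It was higher in GFP-HI in 5 mice and lower in B5M (log2 0.32 ± 0.11 SE, adjusted p = 0.47). Of its 2811 exonic bases 378 overlap Exosc9 on the other strand, and without a stated strand setting those reads cannot be told apart.

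The B-type cyclins were less even. Ccnb1, whose destruction ends mitosis, was at 29.0, 43.2 and 65.3 CPM in GFP-HI against 30.3, 37.4 and 40.3 CPM in GFP-LO. The spread was wide in GFP-HI, and B5M and B7F had less in GFP-HI than in GFP-LO (log2 0.29 ± 0.16 SE, adjusted p = 0.74). Ccnb2 had log2 0.46, with the largest difference in B1M, at 1.45, and 0.27 without that mouse (adjusted p = 0.56). The phosphatases Cdc25b and Cdc25c, which remove the inhibitory phosphates from CDK1, had log2 −0.01 and 0.16. Cdc25b was at 23.1, 43.8 and 52.9 CPM in GFP-HI against 32.4, 42.2 and 50.1 CPM in GFP-LO, and had a 95% interval of −0.35 to 0.32 on the log2 scale.

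The transcription factors of the late cell cycle had values of opposite sign, neither of which passed the test. Foxm1, a forkhead factor of G2/M genes, was at 34.2, 45.1 and 64.5 CPM in GFP-HI against 15.6, 33.7 and 45.3 CPM in GFP-LO. It was clearly above in B1M, B3M and B7F, with differences of 0.86, 1.10 and 1.12, and slightly below in B4M and B5M (log2 0.54 ± 0.18 SE, adjusted p = 0.49). Its exons share 90 bases with 4933413G19Rik, which averaged 0.226 CPM. Mybl2, which encodes B-MYB, was the least abundant gene of the list, with as few as 9 counts in a library. Its levels were 1.11, 1.85 and 10.8 CPM in GFP-HI against 2.41, 2.92 and 5.92 CPM in GFP-LO. B3M alone had more in GFP-HI, by 1.72, and the other 5 mice had less (log2 −0.40 ± 0.54 SE, adjusted p = 0.90). The interval of −1.56 to 0.77 leaves the direction unresolved.

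Among the kinases listed apart from the checkpoint, Pbk, a kinase active in mitotic cells, had the largest log2 fold change of all 46 genes. It was at 19.1, 33.3 and 43.5 CPM in GFP-HI against 13.6, 21.8 and 28.0 CPM in GFP-LO. Every mouse had more in GFP-HI, by 0.29 to 0.88, although the group ranges overlapped (log2 0.60 ± 0.14 SE, 1.52-fold, edgeR adjusted p = 0.12). Plk1 and Aurka, the Polo and Aurora kinases of centrosome and spindle assembly, had log2 0.08 and 0.07, with adjusted p = 0.95 and 0.96, and −0.107 and −0.0123 without B7M. Their 95% intervals, −0.36 to 0.52 and −0.36 to 0.50, include values as large as that of most other genes here. Melk, a kinase marker of proliferating cells, had 0.29 and was positive in 3 of 6 mice.

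The chromosomal passenger complex, which corrects faulty attachments, had the median log2 fold change 0.39 over its 4 genes, all positive. Incenp, its scaffold, was at 67.5, 97.7 and 113 CPM in GFP-HI against 51.5, 71.2 and 78.0 CPM in GFP-LO. The difference was positive in 6 of 6 mice, from 0.16 in B5M to 0.73 in B7M (log2 0.43 ± 0.10 SE, 1.35-fold, edgeR adjusted p = 0.091). Its kinase Aurkb and the survivin gene Birc5 had log2 0.45 and 0.35 (adjusted p = 0.61 and 0.68). Cdca8, which encodes borealin, was at 35.9, 45.1 and 65.9 CPM in GFP-HI against 30.5, 47.0 and 51.0 CPM in GFP-LO. Its groups covered much the same range, 3 mice went each way, and the log2 fold change was 0.07 ± 0.12 SE (adjusted p = 0.92).

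In the spindle assembly checkpoint, 4 of 5 genes had a positive value and the median was 0.28. Mad2l1, the inhibitor that binds CDC20, was at 22.7, 33.0 and 47.0 CPM in GFP-HI against 17.1, 24.7 and 27.7 CPM in GFP-LO. It was higher in GFP-HI in all 6 mice, by 0.25 to 0.89 (log2 0.49 ± 0.14 SE, adjusted p = 0.28). Bub3, an adaptor at unattached kinetochores, was at 45.9, 52.8 and 67.4 CPM in GFP-HI against 38.0, 42.2 and 65.8 CPM in GFP-LO. The high GFP-LO value was that of B1M, the only mouse with less Bub3 in GFP-HI (log2 0.28 ± 0.13 SE, adjusted p = 0.68). Bub1b, the checkpoint protein BUBR1, was at 24.8, 35.9 and 63.6 CPM in GFP-HI against 27.9, 42.0 and 51.4 CPM in GFP-LO, with 2 of 6 mice positive (log2 −0.05 ± 0.15 SE, adjusted p = 0.96). The kinases Bub1 and Ttk had log2 0.34 and 0.28, with B1M at −0.43 and −1.27. Without B1M they had 0.50 and 0.56 (adjusted p = 0.28 and 0.17).

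Anaphase onset was represented by 4 genes with a median of 0.24. Ube2c, the ubiquitin-conjugating enzyme of the anaphase-promoting complex, was at 47.9, 74.6 and 101 CPM in GFP-HI against 36.9, 51.2 and 63.0 CPM in GFP-LO. It was higher in GFP-HI in 5 mice, by up to 1.03 in B7M, and nearly equal in B7F at −0.04 (log2 0.53 ± 0.13 SE, 1.45-fold, adjusted p = 0.16). Cdc20, the activator of that complex, was at 16.2, 60.8 and 71.1 CPM in GFP-HI against 31.7, 53.2 and 61.9 CPM in GFP-LO. The lowest value belonged to B1M, with a difference of −1.53, while the other 5 mice lay between 0.01 and 0.36 (log2 −0.07 ± 0.20 SE, adjusted p = 0.96). Without B1M the log2 fold change of Cdc20 was 0.19 (adjusted p = 0.67). Elovl1, at a mean of 40.9 CPM, overlaps 48 of its exonic bases on the other strand. The securin gene Pttg1 and the mitotic entry factor Cdca3 had log2 0.12 and 0.37. Pttg1 moved with single mice, to 0.32 without B1M and −0.0049 without B7M.

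All 7 kinetochore and centromere genes had positive values, between 0.27 and 0.47. Cenpe, the motor that carries chromosomes to the spindle equator, was at 107, 123 and 192 CPM in GFP-HI against 80.4, 102 and 132 CPM in GFP-LO. It was higher in GFP-HI in every mouse except B5M (log2 0.31 ± 0.10 SE, adjusted p = 0.34). Cenpa, the histone variant that marks centromeres, was at 31.4, 39.9 and 48.4 CPM in GFP-HI against 28.9, 31.8 and 35.8 CPM in GFP-LO. B1M and B7F had slightly less in GFP-HI (log2 0.28 ± 0.15 SE, adjusted p = 0.74). The 4 subunits of the NDC80 complex, which grips microtubule ends, had log2 0.44 for Ndc80, 0.30 for Nuf2, 0.47 for Spc24 and 0.40 for Spc25 (adjusted p = 0.65, 0.68, 0.80 and 0.71). Without B1M, Spc25 had 0.60 (adjusted p = 0.11). Spc24 was the least abundant of these, at 5.13 to 14.4 CPM in GFP-HI against 4.52 to 7.08 CPM in GFP-LO, and had the widest interval of them (−0.22 to 1.16). Cenpf, a large coat protein of kinetochores, had 0.27 (adjusted p = 0.50).

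The 7 genes of spindle microtubule proteins were also all positive, with a median of 0.28, and held the gene with the smallest p of the 46. That gene was Tpx2 (chromosome 2, 152847964 to 152895321, mm10), which nucleates microtubules around chromosomes and activates Aurora A. It was at 69.9, 77.9 and 125 CPM in GFP-HI against 47.9, 54.3 and 84.3 CPM in GFP-LO. All 6 mice had more in GFP-HI, from 0.22 in B5M to 1.18 in B1M (log2 0.57 ± 0.12 SE, 1.49-fold, edgeR adjusted p = 0.071). Nusap1, which bundles microtubules at chromosomes, was at 67.0, 83.2 and 99.5 CPM in GFP-HI against 46.4, 61.2 and 70.8 CPM in GFP-LO. It was higher in GFP-HI in 5 mice, while B5M was nearly equal at −0.05 (log2 0.50 ± 0.11 SE, adjusted p = 0.097). Oip5 overlaps 416 of the 2960 exonic bases of Nusap1 on the other strand, at a mean of 4.88 CPM. Ckap2, a microtubule-associated protein of the spindle, was at 69.9, 98.2 and 137 CPM in GFP-HI against 76.8, 88.5 and 103 CPM in GFP-LO, with broad overlap (log2 0.18 ± 0.10 SE, adjusted p = 0.74). Ckap2l, Hmmr, Aspm and Dlgap5, which serve spindle poles and microtubule bundles, had 0.34, 0.28, 0.18 and 0.11.

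Cytokinesis genes had a median of 0.30, and all 5 were positive. Prc1, which crosslinks the microtubules of the central spindle, was at 83.8, 96.8 and 129 CPM in GFP-HI against 53.2, 75.3 and 93.6 CPM in GFP-LO. Every mouse had more in GFP-HI, between 0.07 in B5M and 0.96 in B7F (log2 0.47 ± 0.12 SE, 1.38-fold, adjusted p = 0.15). Anln, the actin-binding anillin of the contractile ring, was at 169, 215 and 345 CPM in GFP-HI against 136, 180 and 253 CPM in GFP-LO. The ranges overlapped widely, and within mice all 6 differences were positive, from 0.02 to 0.46 (log2 0.30 ± 0.08 SE, adjusted p = 0.16). Racgap1, Cit and Ect2, which control the small GTPase RhoA and the ring, had 0.32, 0.20 and 0.10.

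Mki67 and Cdca2 act at the surface of mitotic chromosomes. Mki67 (chromosome 7, 135689788 to 135716379, mm10), the Ki-67 protein that coats them and marks proliferating cells, was at 630, 785 and 1055 CPM in GFP-HI against 490, 574 and 787 CPM in GFP-LO. The ranges overlapped, and 5 of 6 mice had more in GFP-HI, with B5M at −0.04 (log2 0.37 ± 0.08 SE, 1.29-fold, edgeR adjusted p = 0.097). Cdca2, which brings a phosphatase to chromatin at mitotic exit, had log2 0.51 ± 0.19 SE (adjusted p = 0.55) and was positive in 6 of 6 mice.

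**Figure D3:**
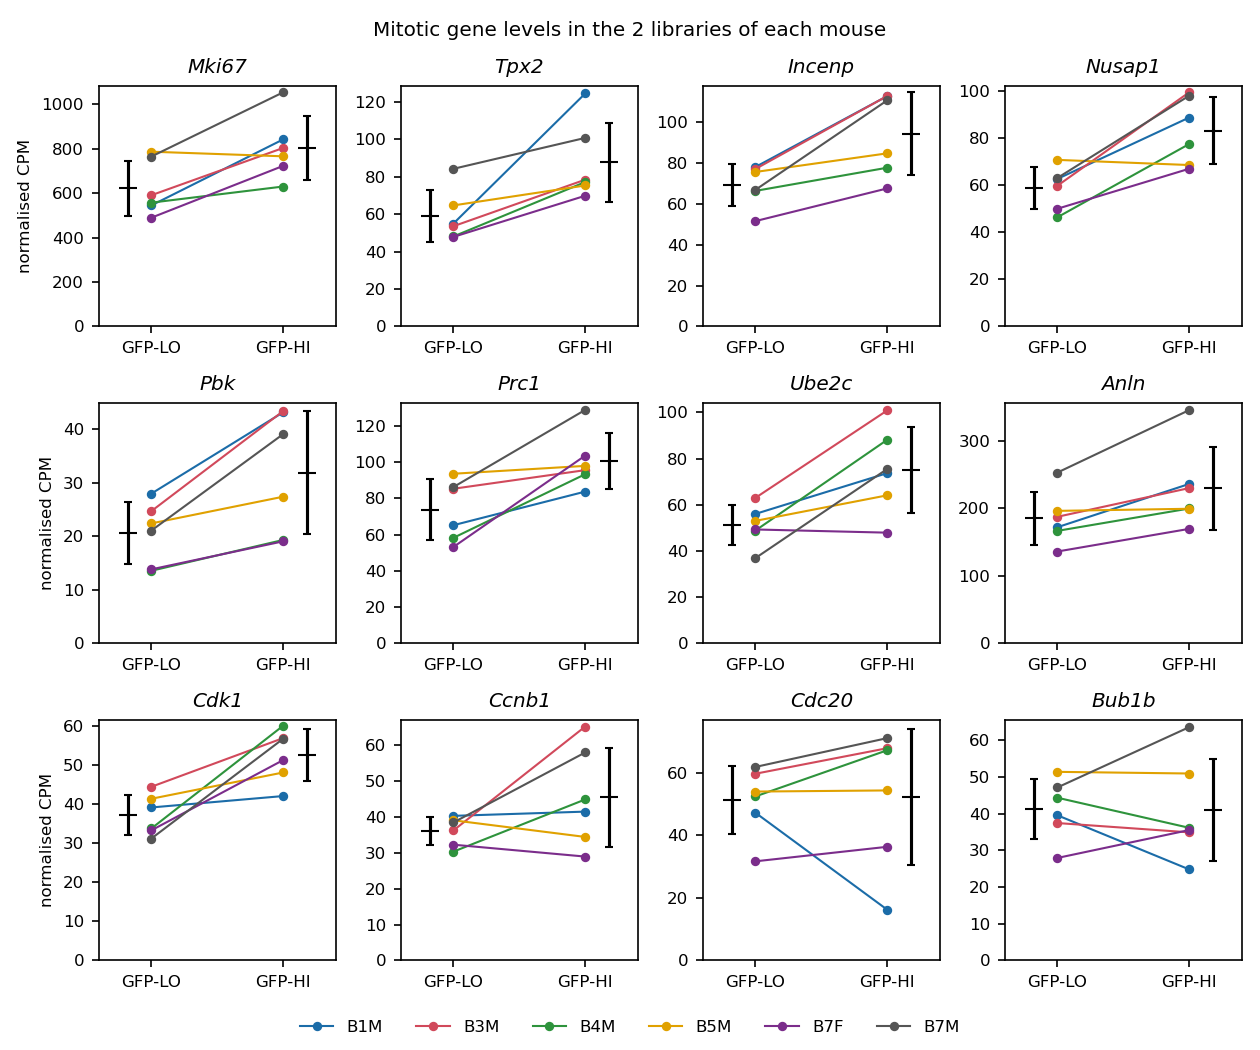
Normalised CPM of 12 mitosis genes in the GFP-LO and GFP-HI library of each mouse, joined by a line per mouse; bars beside the points are mean and SD of 6 libraries. Shown are the 9 genes with the smallest p between the fractions, with Ccnb1, Cdc20 and Bub1b, so lines that slope up follow in part from that choice. Most lines slope up towards GFP-HI with overlapping ranges. The B5M differences run from −0.18 (Ccnb1) to 0.29 (Pbk) on the log2 scale, and Cdc20 drops in B1M from 47.2 to 16.2 CPM.

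Differences within single mice showed which animals carried the pattern. In B3M, B4M, B7F and B7M, 38, 40, 39 and 44 of the 46 genes were higher in GFP-HI, with median log2 differences of 0.37, 0.39, 0.39 and 0.45. In B5M 23 of 46 were higher and the median was −0.00, with all genes between −0.33 and 0.36. B5M was thus the animal with the narrowest spread around 0, and its 2 libraries summed to 3222 CPM (GFP-HI) and 3274 CPM (GFP-LO). Over all tested genes, 47.7% to 51.4% were higher in GFP-HI in the different mice. A difference of the same positive sign in 6 of 6 mice was found for 10 genes, against 3.3% of all tested genes, and no gene was negative in all 6, against 2.62%. The 10 were Cdk1, Pbk, Incenp, Mad2l1, Ndc80, Tpx2, Hmmr, Prc1, Anln and Cdca2. In none of the 46 genes did all GFP-HI libraries lie above all GFP-LO libraries, which 0.0683% of tested genes did, and in none below, which 0.128% did.

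B1M was split. Here 28 of 46 genes were higher in GFP-HI with a median of 0.11, but single values ran from −1.71 for Mybl2 to 1.45 for Ccnb2. Cdc20, Ttk, Pttg1, Cdc25b and Bub1b were lower in its GFP-HI library by −1.53, −1.27, −0.93, −0.78 and −0.67. Cdca2, Tpx2 and Ckap2l were higher by 1.28, 1.18 and 0.91. The GFP-HI library of B1M was also the one with the fewest genes detected, 12312, and the part of this in the split was not tested. Without B1M, 45 of 46 genes had a positive value and the median was 0.33. In that fit Tpx2 and Cdk1 passed as higher (edgeR adjusted p = 0.046 and 0.039), where 0.684% of tested genes did, and 0 were lower (0.118%). Leaving B1M out took the log2 fold change of Tpx2 down from 0.57 to 0.45 and that of Cdk1 up from 0.50 to 0.58. Without B5M, Mki67 and Nusap1 passed (adjusted p = 0.032 and 0.035), where 0.412% did, and 0 were lower (0.0257%). Without B1M and B3M, Birc5, Cdk1, Prc1 and Tpx2 passed as higher (0.979% of tested genes) and 0 as lower (0.285%). Without B7M, whose GFP-HI library had the largest sum, 38 of 46 values were positive and the median was 0.27.

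**Figure D4:**
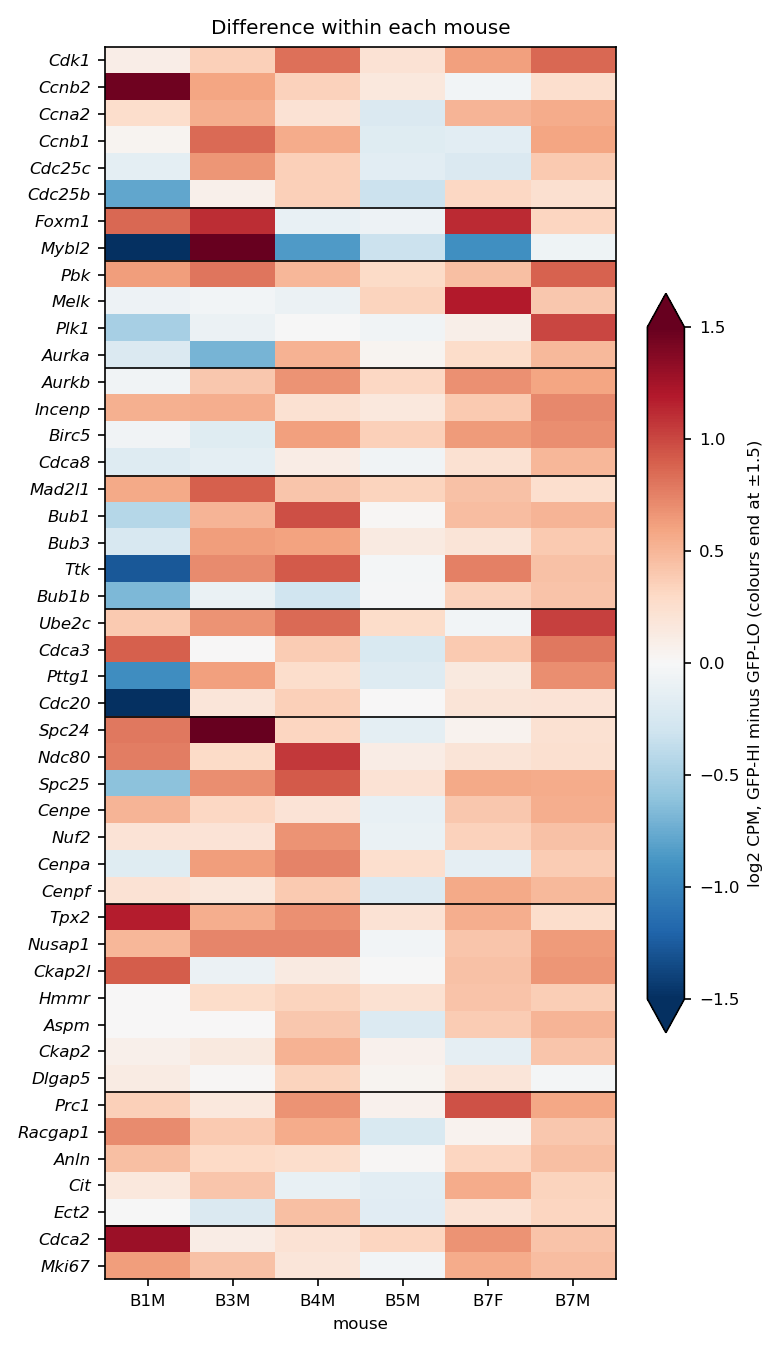
Difference in log2 CPM between the GFP-HI and the GFP-LO library of each mouse (columns) for the 46 mitosis genes (rows, grouped by role and divided by black lines); red is higher in GFP-HI. The B5M column is pale, with values between −0.33 and 0.36, and B1M mixes strong red and blue.

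Per length, the genes spanned a wide range of levels. CPM per 1000 exonic bases averaged 70.8 ± 15.7 for Mki67 and 67.8 ± 19.9 for Ube2c (SD over 12 libraries), which did not differ beyond their spread. Anln, Ccna2 and Ckap2 followed at 38.3 ± 10.02, 37.5 ± 6.99 and 36.7 ± 7.16, again within their spread of each other. Cdc20 and Cdca8 were also among the 10 most abundant, at 29.0 and 28.4. The factors stood low in the order, with Foxm1 at 9.01 and Mybl2 at 0.96, and so did Bub1 (5.60), Spc24 (4.98), Cdca2 (4.87) and Cit (3.93).

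**Figure D5:**
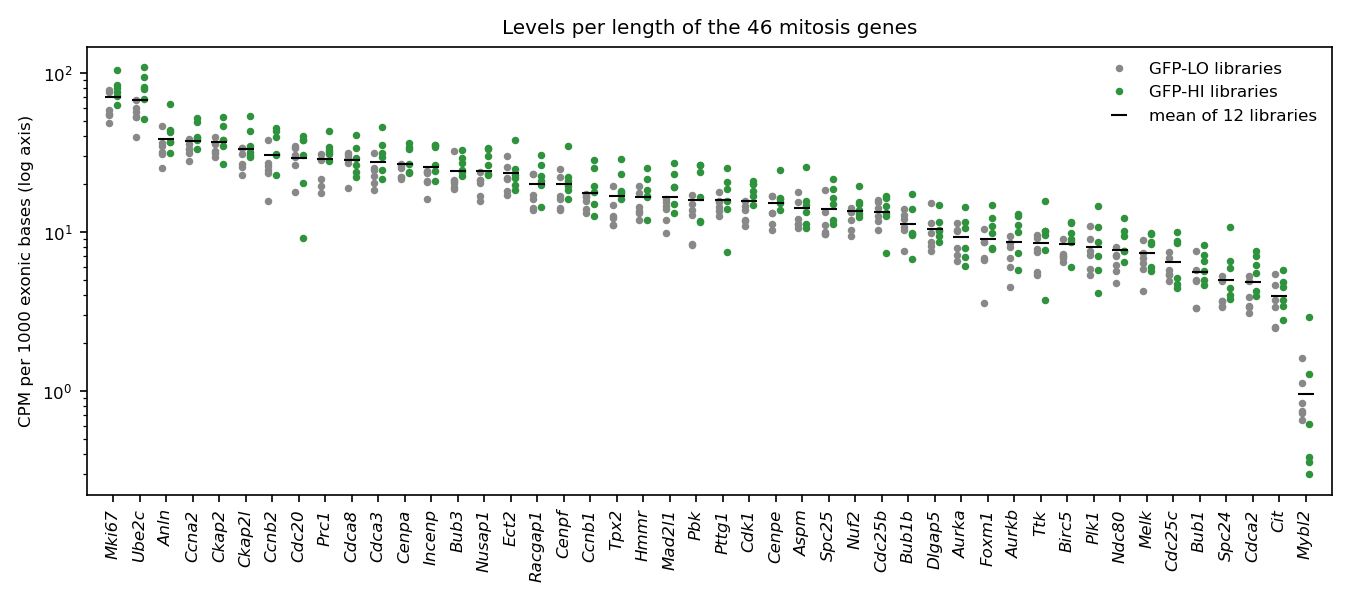
Level per length of each of the 46 mitosis genes, in CPM per 1000 exonic bases on a log axis, ordered by the mean of 12 libraries (black dash); grey points are GFP-LO and green points GFP-HI libraries. Mki67 and Ube2c lead at 70.8 and 67.8 and Mybl2 is last at 0.96, with green and grey points overlapping in every gene.

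Other genes of mitosis were taken from 8 lists of 137 tested genes. edgeR called 0 of them higher (0.469% of all tested genes) and 0 lower (0.0597%). At an unadjusted p under 0.05, 26 were higher and 3 lower, against 4.3% and 2.94% of all tested genes, and limma on log2 CPM also called 0. DESeq2 (1.02%) and edgeR without a filter (0.582%) each called Depdc1a and Esco2 higher. Without B1M (0.684%), and without B1M and B3M (0.979%), edgeR called Esco2 and Iqgap3 higher; Iqgap3 is named for these calls, after its values were seen. Of the 137, 92 had a positive value (67.2%, against 46.9% of all tested genes) and the median was 0.10. Other centromere and kinetochore proteins had 26 positive values of 31 and a median of 0.19, with Cenpn, a reader of centromeric CENP-A, at 0.71 (edgeR adjusted p = 0.53). Regulators of entry and exit had 11 positive of 15 and a median of 0.24, with Cks1b, a CDK-binding subunit, at 0.41 (adjusted p = 0.50) and the phosphatase subunit Ppp2r2a at −0.32 (adjusted p = 0.60). Spindle and centrosome proteins had 21 positive of 27 and a median of 0.14, with Tacc3 at 0.44 and Spag5 at 0.47, both spindle proteins (adjusted p = 0.28 and 0.49). The other checkpoint proteins had 6 positive of 7 and a median of 0.06, where Kntc1 and Spdl1, which bring dynein to kinetochores, had 0.43 and 0.70 (adjusted p = 0.50 and 0.57).

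The remaining lists lay near the median of all genes. The anaphase-promoting complex had 7 positive values of 17 and a median of −0.00, and its inhibitor Fbxo5 and its subunit Anapc7 had 0.37 and −0.32 (adjusted p = 0.79 for both). Subunits of the DREAM and MuvB complexes had 5 positive of 9 and a median of 0.02, with Lin54, which binds the CHR, at 0.20 (adjusted p = 0.81) and Rbl1 at 0.12 (adjusted p = 0.85). Cohesin and separase genes had 8 positive of 14 and a median of 0.04. Esco2, the acetyltransferase that locks cohesin in S phase, was at 29.9 ± 9.59 and 18.3 ± 5.77 CPM (SD, n = 6; log2 0.70, edgeR adjusted p = 0.066), and the cohesin subunit Rad21 had 0.18 (adjusted p = 0.61). Other cytokinesis and abscission genes had 8 positive of 17 and a median of −0.03. Depdc1a, a gene of proliferating cells, stood out among them at 21.2 ± 7.97 and 11.1 ± 1.82 CPM (SD, n = 6; log2 0.88, adjusted p = 0.18), followed by Arhgap11a, a regulator of RhoA, at 0.39 (adjusted p = 0.24).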

How the data were processed

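RNA libraries of GFP-HI and GFP-LO cells from 6 mice (12 libraries) were compared. The authors deposited whole-number read counts per gene, not normalised. The submitters' processing notes name featureCounts, FastQC, bcl2fastq 2.20.0, R 3.4.1 and DESeq2, with builds mm10 and GRCm38. Not given in the sources used here were the aligner, annotation release and strand setting. The length column, per the file headers, gave exonic bases for levels per length.

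Counts were filtered by group (edgeR 4.0.16, minimum count 10, minimum total 15), leaving 11719 genes, and scaled by TMM. The quasi-likelihood test with mouse as a block was robust and two-sided, with Benjamini-Hochberg adjusted p under 0.05 over all tested genes. A positive log2 fold change means more in GFP-HI. Differences within mice used log2 CPM with a prior count of 2. Both libraries of a mouse carry 1 animal code in their titles, and the submitters describe matched samples. Deviations from group means correlated within a mouse at 0.225 to 0.494, above any other mouse in each case. A count of 0 allows up to 3 counts, or 0.258 to 0.433 CPM, for counting error only, since amplified reads are not independent molecules. The script was tested on simulated data with known changes. The edgeR test found 22 of 67 genes changed 1.5-fold, 49 of 67 changed 2-fold and 63 of 66 changed 4-fold. It also called 4 unchanged genes. DESeq2 1.42.0 and limma 3.58.1 were alternatives in R 4.3.3, with RLE scaling, other filters, no mouse block, Rn45s or clustered histone genes left out, and mice left out.

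The 46 genes and all lists were chosen with earlier results of these data known. Described with values per library were the 12 genes with the smallest p, the most abundant per length of each role, Mki67, Ccnb1 and Cdk1, and genes with negative values. From each other list the 2 genes with the smallest p were named, apart from 1 that is not reported here.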

Additional observations from a re-analysis of the deposited data

Results flagged for a closer look

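Among 68 groups of 6 values screened (the 22 genes described with library values and the summed level), 6 held a value set apart from the others by a gap past Dixon's 95% limit, which chance passes in about 1 of 20 groups. In GFP-HI, B7M had 192 CPM of Cenpe against 107 to 127 CPM in the other mice, and a summed level of 4728 CPM over the 46 genes against 3041 to 3637 CPM. B3M had 10.8 CPM of Mybl2 in GFP-HI against 1.11 to 4.71 CPM. In GFP-LO, B7F had 30.5 CPM of Cdca8 against 44.2 to 51.0 CPM, and B1M had 65.8 CPM of Bub3 against 38.0 to 43.6 CPM. The difference of Cdc20 in B1M, −1.53 on the log2 scale, stood apart from 0.01 to 0.36 in the other 5 mice.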

How the results depend on the processing

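Without the mouse block (no replicate block) edgeR called 0 genes in all, against 62 with it. The total was 143 with DESeq2, 172 without a filter on low counts, 9 without the clustered histone genes, 151 without B1M and B3M, and 32 (without B4M) to 95 (without B1M) with single mice left out. Mitosis genes called higher were 9 with DESeq2, 6 without a filter (Incenp, Mki67, Nusap1, Prc1, Tpx2 and Ube2c), 4 without B1M and B3M (Birc5, Cdk1, Prc1 and Tpx2), and 0 to 2 with single mice left out. The other settings called 0, and no setting called any lower. The DESeq2 adjustment ran over fewer genes; otherwise the cause was not tested. The median of the 46 genes stayed between 0.27 and 0.38, and 38 to 45 values were positive. The number higher at an unadjusted p under 0.05 moved more, from 16 without B7M to 29 without B1M and B3M. It was 17 without the mouse block and 18 without B4M. With a minimum count of 30, Mybl2 was not tested.

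Directions near 0 turned. Without the block Cdc25b, Mybl2 and Cdc20 had log2 0.0139, 0.0398 and 0.0286. Without B1M and B3M, Cdc25b, Bub1b and Cdc20 had 0.14, 0.12 and 0.19. Over single mice left out, Cdc25b ran from −0.0883 to 0.135, Bub1b from −0.142 to 0.0782, Cdc20 from −0.16 to 0.192, Cdca8 from −0.00877 to 0.131, Plk1 from −0.107 to 0.196, Aurka from −0.0218 to 0.232 and Pttg1 from −0.0049 to 0.315. No other of the 46 genes turned in any setting run.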
